A study of Mus musculus with 17 samples.

Results

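In Stag2-KO urothelium, the LIN54 antibody was compared with the STAG2 antibody. The STAG2 antibody lacks its target in cells without the gene and so serves as a background for the LIN54 signal. The comparison used the peak lists of 2 LIN54-KO and 2 STAG2-KO libraries, chosen by their labels, of 17 samples in the series, 15 of which have a peak list. Of 20665 protein-coding genes on chromosomes 1 to 19, 3402 had an end marked in both LIN54 libraries. The STAG2 antibody marked 1752 of these genes in neither of its libraries and 389 in both. The members described here are these genes and, below, the regions of the same 2 kinds.

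The series profiled urothelium, the epithelial lining of the bladder, peeled from mice of genotype Stag2-WT or Stag2-KO, 1 week after TMX induction. About 500000 cells per condition went into CUT&RUN, in which an antibody directs a nuclease to a chromatin protein so that the DNA around it is cut out and sequenced. All 4 libraries compared here are Stag2-KO, TMX-induced and of batch 1, and are numbered as biological replicates 1 and 2 of each antibody. The labels do not give the Cre driver, the age or sex of the mice, the number of mice per library, or whether a LIN54 and a STAG2 library of one number came from the same mouse. Cells that kept an intact Stag2 gene would still hold STAG2 protein. The lists cannot show how many such cells there were: at Stag2 itself (chrX:42149297-42277186), a weak deposited peak lay at a gene end in both LIN54 libraries and in STAG2 replicate 2, but such a peak can come from deleted and intact copies alike. In bulk tissue, a protein bound in fewer cells and a protein bound less per cell cannot be told apart.

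LIN54 is the subunit of the MuvB core that binds DNA. With p130 and E2F proteins, MuvB forms the DREAM complex, which holds cell cycle genes silent in resting cells, and with B-MYB and FOXM1 it later serves to switch on the mitotic genes. LIN54 itself reads a short element called the CHR, found near the start of many mitotic (G2/M) genes, whereas the E2F proteins read the E2F site of replication (G1/S) genes, and the factor NF-Y binds CCAAT boxes that often stand a few turns of the helix from a CHR. STAG2 is one of the alternative STAG subunits of cohesin, the ring complex that holds sister chromatids together and forms chromatin loops.

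To show what starts of the 2 kinds of gene look like, the 250 bases before the annotated start are printed for 8 genes, 5′ to 3′ on the strand of the gene (RefSeq, GRCm38.p6). Capitals mark CCAAT, the CHR (TTTGAA or TTCGAA) and the E2F site (TTCCCGC or TTGGCGC) on either strand, so that CCAAT can also read ATTGG and the CHR TTCAAA. The first 3 are mitotic genes marked by LIN54 and in neither STAG2 library: Top2a (chr11:99024190-99024439, minus strand), Ube2c (chr2:164769679-164769928, plus strand) and Fam83d (chr2:158767849-158768098, plus strand). Cep43 (chr17:8165268-8165517, plus strand), a centriole gene, was among the best ranked genes at which no STAG2 peak touched the LIN54 peak.
Top2a: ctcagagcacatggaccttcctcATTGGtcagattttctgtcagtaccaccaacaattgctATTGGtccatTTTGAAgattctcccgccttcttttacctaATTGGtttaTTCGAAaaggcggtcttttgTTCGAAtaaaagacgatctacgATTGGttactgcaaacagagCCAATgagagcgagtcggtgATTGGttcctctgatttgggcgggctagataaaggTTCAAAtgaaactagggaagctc
Ube2c: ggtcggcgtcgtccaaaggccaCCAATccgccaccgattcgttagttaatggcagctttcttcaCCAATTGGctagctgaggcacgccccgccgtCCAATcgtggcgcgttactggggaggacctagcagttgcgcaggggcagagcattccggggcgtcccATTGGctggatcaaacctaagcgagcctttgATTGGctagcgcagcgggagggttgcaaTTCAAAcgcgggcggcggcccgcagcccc
Fam83d: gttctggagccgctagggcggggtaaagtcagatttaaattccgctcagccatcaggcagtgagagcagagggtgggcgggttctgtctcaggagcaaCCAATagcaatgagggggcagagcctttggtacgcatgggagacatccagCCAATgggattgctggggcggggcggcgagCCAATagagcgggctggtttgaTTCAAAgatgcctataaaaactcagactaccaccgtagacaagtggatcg
Cep43: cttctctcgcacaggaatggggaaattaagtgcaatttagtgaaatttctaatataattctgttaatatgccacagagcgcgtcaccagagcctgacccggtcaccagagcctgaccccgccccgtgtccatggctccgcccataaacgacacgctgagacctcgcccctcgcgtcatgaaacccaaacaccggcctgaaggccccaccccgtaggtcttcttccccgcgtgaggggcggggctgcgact
The other four are gene starts marked by both antibodies: Srgap2 (chr1:131527362-131527611, minus strand), Gsk3b (chr16:38088751-38089000, plus strand), Uvrag (chr7:99141145-99141394, minus strand) and the MuvB gene Lin52 (chr12:84451258-84451507, plus strand).
Srgap2: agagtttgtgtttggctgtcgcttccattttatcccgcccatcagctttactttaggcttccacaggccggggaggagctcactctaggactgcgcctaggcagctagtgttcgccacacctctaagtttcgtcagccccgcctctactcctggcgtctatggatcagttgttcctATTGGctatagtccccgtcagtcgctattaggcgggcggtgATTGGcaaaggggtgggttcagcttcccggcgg
Gsk3b: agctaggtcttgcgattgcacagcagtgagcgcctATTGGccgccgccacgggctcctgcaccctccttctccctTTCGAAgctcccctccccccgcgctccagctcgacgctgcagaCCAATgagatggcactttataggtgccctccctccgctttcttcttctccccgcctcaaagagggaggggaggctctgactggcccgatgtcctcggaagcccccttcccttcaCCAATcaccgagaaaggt
Uvrag: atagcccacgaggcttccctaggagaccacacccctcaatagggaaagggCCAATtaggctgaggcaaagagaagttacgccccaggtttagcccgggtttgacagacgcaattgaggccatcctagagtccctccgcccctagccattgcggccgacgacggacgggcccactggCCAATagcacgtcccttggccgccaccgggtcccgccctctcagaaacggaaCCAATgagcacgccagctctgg
Lin52: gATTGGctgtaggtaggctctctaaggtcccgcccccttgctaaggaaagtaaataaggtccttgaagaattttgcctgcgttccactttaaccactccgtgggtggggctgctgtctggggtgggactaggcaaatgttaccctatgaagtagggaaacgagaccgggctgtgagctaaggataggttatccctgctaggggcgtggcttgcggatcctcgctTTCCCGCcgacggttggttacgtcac
Each of the 3 mitotic starts held a CHR together with several CCAAT boxes. Top2a had 4 CHR matches, the nearest beginning 23 bases before the start, Ube2c had 1 beginning 29 bases before it and Fam83d 1 beginning 50 bases before it. Cep43 held none of the marked letters in this window. Srgap2 and Uvrag held CCAAT boxes but no CHR or E2F site, Gsk3b held CCAAT boxes and the TTCGAA form of the CHR, and Lin52 held an E2F site and 1 CCAAT box. A match is a description of the letters and does not show that a factor binds there.

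At q 0.01, LIN54 replicates 1 and 2 held 15641 and 12915 peaks on chromosomes 1 to 19, and STAG2 replicates 1 and 2 held 1229 and 6752. Both LIN54 libraries thus had more such peaks than either STAG2 library. On the log2 scale, the number of peaks was 13.79 ± 0.20 for LIN54 and 11.49 ± 1.74 for STAG2 (SD, n = 2 each), a difference of 2.30 (two-sided exact permutation p = 0.33). With 2 libraries against 2, that p is the smallest the test can give, so the difference could not reach 0.05. The deposited lists, which run down to p 0.05, were of like size in both antibodies, with 297084 and 362451 peaks for LIN54 and 328775 and 285257 for STAG2. The background coverage recovered from the lists was 1.72 and 1.62 fragments per base for LIN54 and 2.03 and 2.53 for STAG2, and the part of coverage in the peak numbers was not tested. The weakest summit at q 0.01 held 9 fragments in each LIN54 library and 11 in each STAG2 library. The peaks just inside q 0.01 had folds of 3.56 and 3.76 in LIN54 and 4.10 and 3.28 in STAG2, and those just outside had 3.69 and 3.62 in LIN54 and 4.24 and 3.77 in STAG2.

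The share of q 0.01 peaks with a summit within 500 bp of a gene end was 25.9% and 28.9% in the LIN54 libraries and 35.6% and 27.5% in the STAG2 libraries. The groups overlapped, and the difference of -4.18 percentage points was smaller than the SD of 5.73 of the STAG2 group (exact permutation p = 0.667). Among the 5000 best peaks of each library the direction turned, with a difference of 17.9 points (exact permutation p = 0.33). The bases covered by peaks at q 0.01 overlapped most between the 2 LIN54 libraries (Jaccard index, shared over joint bases, 0.345). The index was 0.0947 between the 2 STAG2 libraries, and 0.0521 to 0.213 between a LIN54 and a STAG2 library. STAG2 replicate 2 therefore overlapped more with either LIN54 library (0.186 and 0.213) than with STAG2 replicate 1. The mean index within antibodies exceeded that between them by 0.0914 (one-sided exact permutation p = 0.33, the smallest possible). That excess was -0.0436 without LIN54 replicate 1 and -0.0243 without LIN54 replicate 2.

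A gene counts as marked when a summit at q 0.01 lies within 500 bp of either of its ends, so that summits of different libraries can lie at opposite ends of one gene. LIN54 replicates 1 and 2 marked 4642 and 4312 genes, and STAG2 replicates 1 and 2 marked 517 and 2165. Every gene count was higher in LIN54 than in STAG2. Both LIN54 libraries shared 3402 genes, 16.5% of all, and both STAG2 libraries shared 415, or 2.01%. Nearly all of what the STAG2 antibody marked in both libraries was also marked by LIN54: 389 of the 415 (93.7%) in both LIN54 libraries and 18 more (4.34%) in 1 of them. As shares of the single libraries, 93.0% and 91.5% of the genes of STAG2 replicate 1 were in LIN54 replicates 1 and 2, and 81.0% and 79.5% of those of STAG2 replicate 2. In the other direction, 10.4% and 37.8% of the genes of LIN54 replicate 1 were in STAG2 replicates 1 and 2.

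The 3402 LIN54-marked genes fell into 4 grades by what the STAG2 antibody left at either end of the gene. For 389, 1.88% of all genes and 11.4% of those marked by LIN54, both STAG2 libraries reached q 0.01. For 1261 (6.1% and 37.1%) 1 of them did, which was replicate 2 for 1191 and replicate 1 for 70. For the remaining 1752, which are 8.48% of all genes and 51.5% of the LIN54-marked ones, neither did, and these are the genes marked by LIN54 alone. Of those, 1625 (7.86% of all genes and 47.8% of the LIN54-marked ones) still had a deposited STAG2 summit short of q 0.01, and 127 (0.615% and 3.73%) had none. The window decides part of that last count: at 83 of the 127 a deposited STAG2 peak touched the window or the LIN54 peak with its summit outside, and at 44 (0.213%) there was no such peak. In 3392 of the 3402 genes both LIN54 libraries marked one and the same end. Counting STAG2 summits at that end only, a choice added after seeing the data, genes of LIN54 alone numbered 1756, those common to both antibodies 388 and those with no deposited STAG2 summit 190, which hold the 127. The counts rest on STAG2 replicate 2 and replicate 1 in opposite ways. Without replicate 2, genes marked by LIN54 alone numbered 2943 and those common to both antibodies 459, and without replicate 1 they numbered 1822 and 1580. Without LIN54 replicate 1 the genes of LIN54 alone numbered 2514 and without replicate 2 they numbered 2808.

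**Figure D1:**
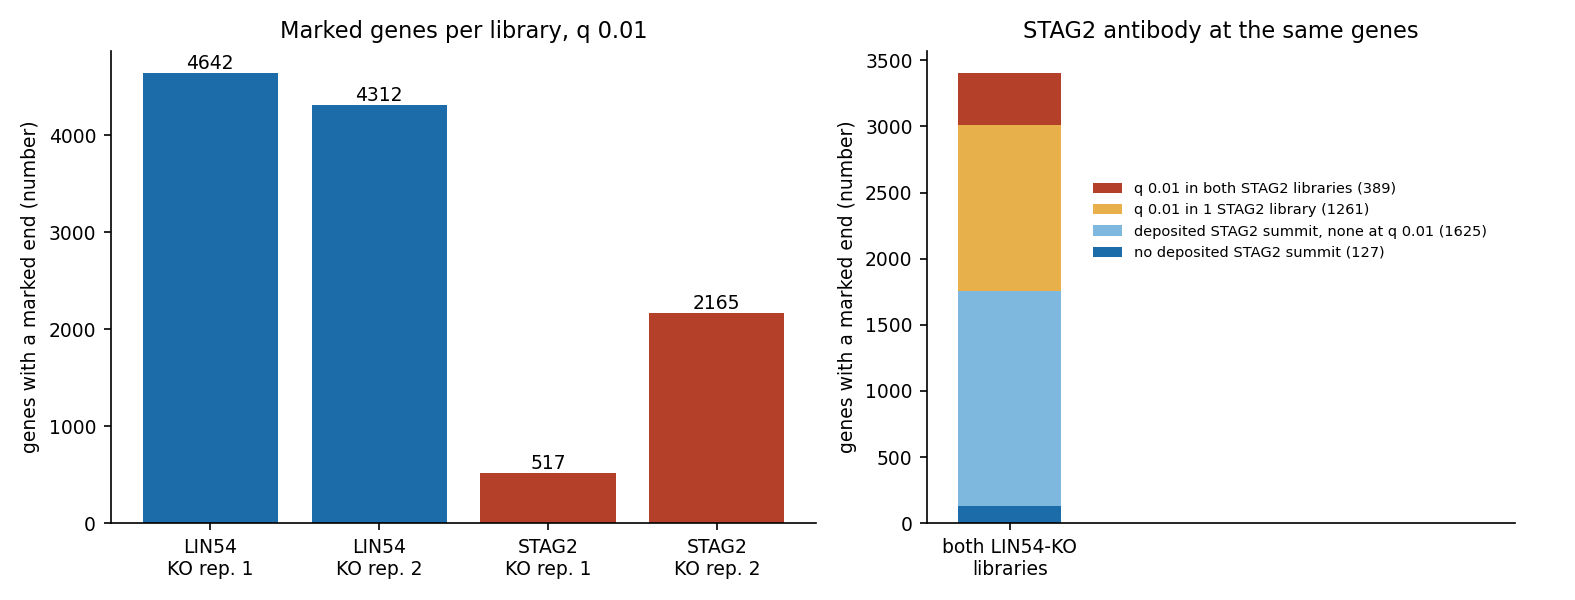
Left, the number of genes with an end marked at q 0.01 in each of the 4 Stag2-KO libraries (bars, 1 library each, LIN54 blue, STAG2 red). Right, the 3402 genes marked in both LIN54 libraries, stacked by what the STAG2 antibody showed at either end of the gene: 389 were marked in both STAG2 libraries and 1261 in 1, 1625 had only a weaker deposited summit and 127 had none.

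LIN54 folds were higher in the grades with more STAG2 signal. The median fold enrichment of LIN54, the authors' ratio of summit to local background within 1 library, was 4.99 and 4.84 in replicates 1 and 2 at the 127 genes with no STAG2 summit. It was 5.44 and 5.27 at the 1625 genes with a weaker STAG2 summit, 6.98 and 6.94 at the 1261 genes marked in 1 STAG2 library, and 12.3 and 10.8 at the 389 common genes. The widths of the LIN54 peaks followed the same order, from a median of 828 and 880 bp to 1248 and 1185 bp. Over the 4011 genes with a deposited summit in all 4 libraries, the folds of the 2 LIN54 libraries correlated with a Spearman rho of 0.79, those of the 2 STAG2 libraries with 0.44, and those of a LIN54 and a STAG2 library with 0.42 to 0.52. These values are the best fold over both ends of a gene, describe genes, which are not replicates, and all 4 lists share the same genome and mappability.

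**Figure D2:**
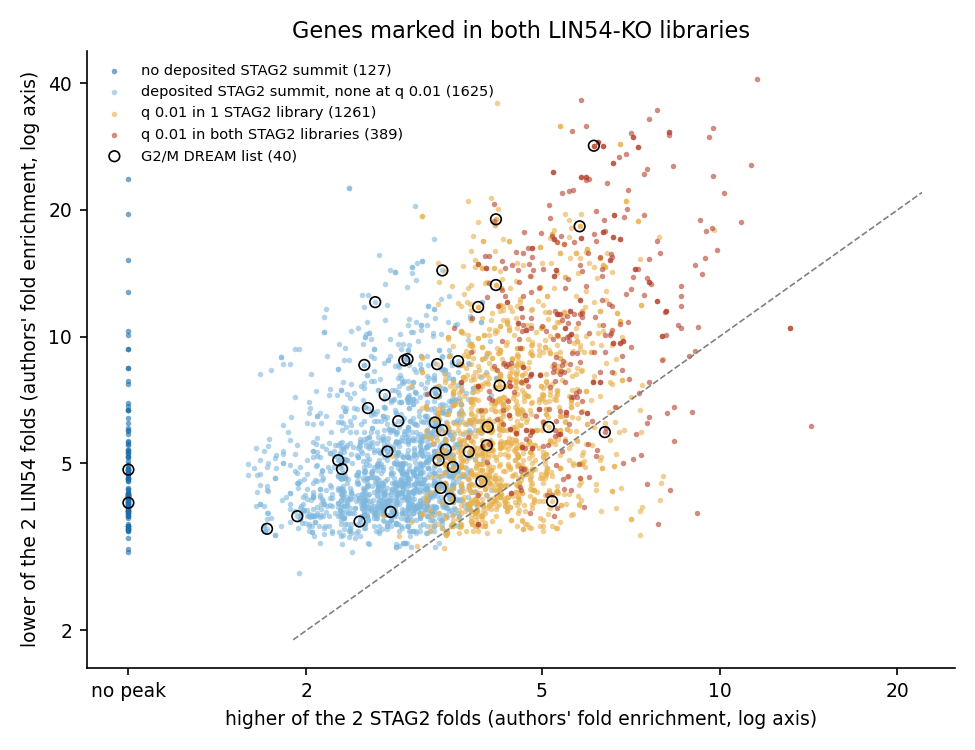
Each point is 1 of the 3402 genes marked in both LIN54-KO libraries, with the higher of its 2 STAG2 folds on the x axis and the lower of its 2 LIN54 folds on the y axis (authors' fold enrichment, log axes, genes without a STAG2 summit at the left edge). Colours give the 4 grades, circles the 40 genes of the G2/M list, and the dashed line equal folds; red points (389 common genes) reach the highest LIN54 folds, and most circles lie at low STAG2 folds.

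Every list below is set against the same 2 backgrounds, the 16.5% of all genes marked in both LIN54 libraries and the 51.5% of those that were marked by LIN54 alone, and no difference from either was tested. Of 80 mitotic (G2/M) genes of the DREAM target list on these chromosomes, 40 (50%) were marked in both LIN54 libraries, against 16.5%, and 26 of the 40 (65.0%) were marked by LIN54 alone, against 51.5%. STAG2 replicates 1 and 2 marked 3 and 14 of the 80, against 517 and 2165 of all 20665 genes. LIN54 replicates 1 and 2 marked 45 and 53 of the 80, against 4642 and 4312 of all genes. In each library the share of the G2/M list was the higher. The lists are described by counts only, since they were chosen with earlier results known.

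At Top2a, which encodes the topoisomerase that untangles chromosomes before they part, LIN54 folds were 12.1 and 19.4, and STAG2 had no summit at that end in replicate 1 and a fold of 2.14 in replicate 2. A STAG2 replicate 1 summit with a fold of 2.62 lay at the far end of the gene. The start of Top2a printed above is the one with 4 CHR matches. At Cdc25c, the phosphatase that starts mitosis, the LIN54 folds were 14.4 and 20.7, and STAG2 had no summit in the window in replicate 1 and a fold of 3.40 in replicate 2. At Kif22, a chromosome-arm kinesin gene that shares its end with Maz, they were 18.0 and 8.56 for LIN54 against 2.51 and 2.24 for STAG2. That mark lay at the low-coordinate end of Kif22 and was not matched to an annotated start of it. It cannot be assigned to 1 of the 2 genes. Ube2s and Ube2c encode ubiquitin-conjugating enzymes of the anaphase-promoting complex. Ube2s had LIN54 folds of 8.77 and 13.1 and a STAG2 fold of 2.93 in replicate 2, while the replicate 1 peak (3.06) had its summit outside the window. Ube2c had 5.02 and 4.84 with a STAG2 fold of 2.30 at a summit of replicate 2. None of the 5 genes reached q 0.01 in a STAG2 library.

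The condensin genes Smc2, Smc4, Ncapd2, Ncapg and Ncapg2, the kinase genes Aurka, Bub1 and Ttk and the cyclin gene Ccnb1 were also marked by LIN54 alone, with LIN54 folds between 3.83 and 11.2. Fam83d, a spindle gene, was the G2/M gene at which no STAG2 peak touched, with LIN54 folds of 4.02 and 4.88. Cdc20, which activates the anaphase-promoting complex, had LIN54 folds of 4.82 and 5.37 and no STAG2 summit in the window. A peak of each STAG2 library touched it, with folds of 2.21 and 2.06. These genes were named after their values had been seen.

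The 2 G2/M genes common to both antibodies were Cdca2 and Kifc1. At Cdca2, a regulator of mitotic phosphatase whose end is shared with Kctd9, LIN54 folds were 30.6 and 28.4 and STAG2 folds 5.58 and 6.13. At Kifc1, a minus-end kinesin gene, they were 10.2 and 5.92 for LIN54 and 5.98 and 6.40 for STAG2, so the listed folds overlapped. The other 12 LIN54-marked G2/M genes reached q 0.01 in 1 STAG2 library. Among them were Cdca3 (LIN54 20.5 and 19, STAG2 3.51 and 4.19), Tacc3 (18.3 and 20.04 against 3.20 and 5.80) and Hmmr (11.8 and 12.9 against 1.72 and 3.91).

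Of 75 replication (G1/S) genes, 29 (38.7%, against 16.5%) were marked in both LIN54 libraries, of which 17 (58.6%, against 51.5%) by LIN54 alone, 9 also in 1 STAG2 library and 3 in both. At Orc6, a subunit of the origin recognition complex whose end lies beside Vps35, LIN54 folds were 15.6 and 15.1 and STAG2 folds 2.87 and 3.14. At Slbp, which binds the stem-loop of histone mRNA, they were 13.1 and 14.8 for LIN54 with a STAG2 fold of 2.97 in replicate 1, while the replicate 2 peak (3.61) had its summit 510 bp from the end, outside the window. At Mcm4, a subunit of the replicative helicase whose end is shared with Prkdc, they were 11.6 and 15.8 against 2.15 and 3.29. Cdc25a, the phosphatase of the G1/S step, had LIN54 folds of 8.58 and 13.95 and, at the same end, a STAG2 fold of 2.52 in replicate 1, while the replicate 2 peak (3.54) had its summit 1118 bp away. None of the 4 genes reached q 0.01 in a STAG2 library.

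Wee1 and Cdc45 were among the 3 common G1/S genes. Wee1, the kinase that restrains mitotic entry, had LIN54 folds of 9.97 and 8.64 and STAG2 folds of 3.55 and 4.32. Cdc45, a helicase component, had 7.64 and 7.78 against 3.90 and 3.86. At both genes each STAG2 library reached q 0.01.

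Among 15 genes that encode DREAM and MuvB subunits, 5 (33.3%, against 16.5%) were marked in both LIN54 libraries. Of these 5, 4 (80%, against 51.5%) were marked by LIN54 alone. Rbbp4, the histone-binding subunit of MuvB, had LIN54 folds of 12.4 and 10.8 and STAG2 folds of 3.95 and 3.11, neither of which reached q 0.01. Rbl2, which encodes p130, had LIN54 folds of 4.32 and 3.85 and no STAG2 summit in the window, although a deposited STAG2 peak touched it. Lin37 (3.63 and 4.84 against 2.76 and 2.61) and Tfdp2 (3.85 and 4.14 against 2.22 and 2.50) were weaker. Lin52 was the common one, with 17.7 and 18.2 against 5.30 and 6.36. Lin54 itself was not marked at q 0.01, with deposited LIN54 folds of 2.66 and 2.42 and STAG2 folds of 2.78 and 3.53.

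Of 16 genes of cohesin and its regulators on these chromosomes, 4 (25%, against 16.5%) were marked in both LIN54 libraries. By LIN54 alone it was 3 of the 4 (75%, against 51.5%), and Ctcf was also marked in 1 STAG2 library. Mau2, of the cohesin loader, had LIN54 folds of 8.38 and 12.1 and STAG2 folds of 2.75 and 3.13. Esco2, the acetyltransferase that locks cohesin on sister chromatids, had 5.74 and 8.66 with a STAG2 fold of 3.03 at a summit of replicate 2. Smc3, a core ring subunit, had 4.49 and 5.62 against 2.86 and 3.29.

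Of 25 immediate early genes, which stress and growth factors switch on within minutes, 13 were marked in both LIN54 libraries (52.0%, against 16.5%), 3 of them in both STAG2 libraries and 4 in 1, and 6 (46.2%, against 51.5%) by LIN54 alone. Both LIN54 libraries marked the same end in 11 of the 13. Egr1, a zinc finger factor, had LIN54 folds of 32.8 and 29.9 and STAG2 folds of 9.59 and 5.54. Fos had 18.7 and 14.5 against 6.26 and 7.28 and Atf3 11.96 and 7.05 against 3.65 and 4.12. Hspa1a, a heat shock chaperone gene, was marked by LIN54 alone (9.31 and 7.24, with no STAG2 summit at that end). It lies in the histocompatibility stretch given below, where the placement of reads is uncertain. Also marked by LIN54 alone were Btg2 (8.47 and 5.19, with a STAG2 fold of 2.36 at that end in replicate 1) and Fosl1 (5.65 and 4.57 against 2.02 and 2.28). The LIN54 summits at Btg2 were not matched to an annotated start of it. STAG2 peaks with folds of 3.61 and 2.69 touched its window or LIN54 peak from outside. At the other end of Btg2, STAG2 replicate 1 had a fold of 3.80. Myc (10.1 and 3.70) had no STAG2 summit in the window. Peaks of both STAG2 libraries touched the window or the LIN54 peak, with folds of 2.97 and 6.08, so the listed folds overlapped. Their summits lay 1760 and 1765 bp from the end.

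Ribosomal protein genes had 40 of 75 members (53.3%, against 16.5%) marked in both LIN54 libraries, of which 24 (60.0%, against 51.5%) by LIN54 alone, 14 with 1 STAG2 library and 2 with both. Rpl32, whose end is shared with Cand2, had LIN54 folds of 10.63 and 10.66 and STAG2 folds of 2.97 and 2.12. Rpsa had 9.72 and 6.87 against 3.09 and 3.06 at the same end. Rps23 was the member at which no STAG2 peak touched (4.14 and 5.56). The common ones were Rpl37 (6.35 and 5.46 against 4.28 and 4.63) and Rpl41. Rpl41 is common only when both ends are read: at the end marked in both LIN54 libraries the LIN54 folds were 9.77 and 7.39 and the STAG2 folds 2.37 and 2.73, and the STAG2 summits at q 0.01 (5.56 and 3.68) lay at the other end, where LIN54 replicate 2 had a fold of 10.0. Ribosomal protein genes have many near-identical processed copies, and how reads from such copies were placed is not given in the sources used here.

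Of 18 luminal urothelial genes, which mark the differentiated surface layer, 4 (22.2%, against 16.5%) were marked in both LIN54 libraries and 1 of the 18 (5.56%, against 8.48% of all genes) by LIN54 alone. That gene was Upk3b, with LIN54 folds of 4.78 and 4.16 and STAG2 folds of 3.55 and 2.83. STAG2 replicates 1 and 2 marked 1 and 7 of the 18, against 517 and 2165 of all 20665 genes. LIN54 replicates 1 and 2 marked 6 and 5 of the 18, against 4642 and 4312 of all genes. In each library the luminal share was the higher, and no difference was tested. At Upk2, a uroplakin of the bladder surface and the common member, the LIN54 folds were 4.32 and 4.79 and the STAG2 folds 4.36 and 8.25. The listed folds overlapped there, as they did at the tight junction gene Cldn4 (4.51 and 5.58 against 2.52 and 5.84) and at the protease gene Tmprss2 (3.77 and 7.04 against 3.95 and 5.61). None of the 10 basal urothelial, 8 fibroblast, 6 smooth muscle, 8 immune and 6 endothelial markers was marked in both LIN54 libraries, nor any of 29 genes of other tissues. In single libraries, LIN54 replicate 1 marked 3 fibroblast and 1 smooth muscle gene, LIN54 replicate 2 marked 1 immune gene, and STAG2 replicate 2 marked 1 gene of the other tissues.

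Of 20 targets of p53, the factor that answers DNA damage, 8 (40%, against 16.5%) were marked in both LIN54 libraries and 6 (75.0%, against 51.5%) by LIN54 alone. Among them were Btg2, given above, Xpc, a DNA repair gene (LIN54 folds 4.62 and 7.77, STAG2 folds at the same end 2.05 and 1.93), and Sesn2 (5.54 and 5.61 against 2.12 and 2.71). At Gadd45a, a growth arrest gene and the common one, the STAG2 folds of 6.11 and 6.17 lay above the LIN54 folds of 5.42 and 5.21.

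**Figure D3:**
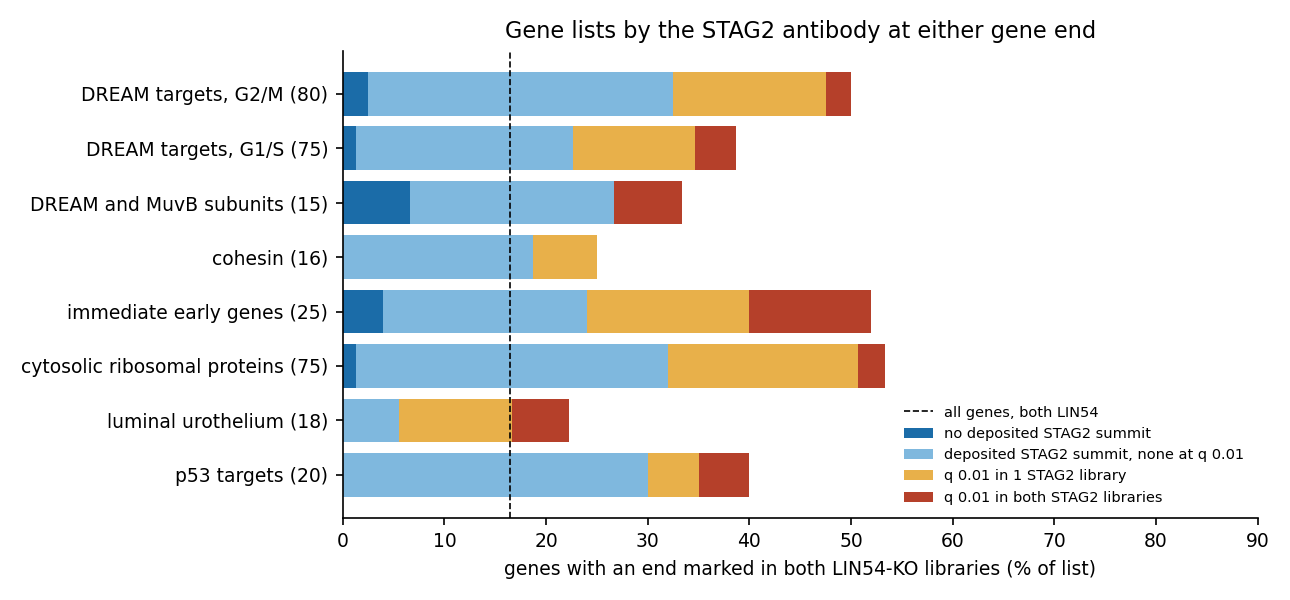
For each gene list with a LIN54-marked member (number of its genes on chromosomes 1 to 19 in brackets), the percent of the list marked in both LIN54-KO libraries, stacked by the STAG2 signal at either end of the gene. The dashed line is the 16.5% of all genes so marked. G2/M, ribosomal protein and p53 target genes have the widest light blue stretches (a deposited STAG2 summit but none at q 0.01), and the luminal genes the narrowest.

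Outside the lists, the 12 best ranked common genes had LIN54 folds of 18.1 to 60.5 and STAG2 folds of 5.31 to 11.6. Srgap2, a regulator of the cytoskeleton whose end is shared with Fam72a, had LIN54 folds of 46.0 and 41.0 and STAG2 folds of 7.45 and 11.6. Gsk3b, the kinase of glycogen and WNT signalling, had 34.5 and 60.5 against 5.92 and 7.85. Uvrag, of autophagy, had 26.6 and 25.5 against 8.24 and 11.3. The starts of all 3 are printed above. The others were Sertad2, Hdlbp and Septin2 on one shared end, the stress granule gene G3bp1, Inpp5a, the histone demethylase gene Kdm4a, Zbtb5, Ankrd50 and Fdxr.

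The 12 best ranked genes with no STAG2 summit in the window had LIN54 folds of 7.73 to 26.1. Ell, an elongation factor gene, led with 26.1 and 23.7, followed by Nlgn2 (20.4 and 19.6). At both, STAG2 peaks touched the window from outside: their summits lay 605 and 631 bp from the end of Ell, with folds of 4.54 and 5.55, and 510 and 505 bp from that of Nlgn2, with folds of 3.31 and 5.48. The window edge thus set these 2 apart. Next came the histocompatibility genes H2-M3 (15.2 and 17.4) and H2-D1 (12.8 and 15.4), members of a family with near-identical copies, so their signal is uncertain. No STAG2 peak touched 3 of the 12. BC051142 had LIN54 folds of 10.3 and 11.3, but it lies in the histocompatibility stretch given below, so its signal is uncertain too. Wbp1, on an end shared with Ino80b and Mogs, had 7.73 and 11.1, and Cep43, whose start is printed above, 7.82 and 8.97. The other five were Fbxl19, Tecr, Tmem167b, Fam227a and Cttnbp2nl. Among the 44 genes with no touching STAG2 peak, the next in rank were Map3k10 with Zfp607b (10.3 and 6.67), Atp2b1 (8.38 and 6.82), Zfp386 (6.70 and 7.09) and Zfp870 (5.98 and 7.16), named after their values had been seen.

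Only 8 genes (0.0387% of all) were marked in both STAG2 libraries and neither LIN54 library: Ugt1a6a, Gm5148, Naa50, Socs1, Myo1g, Spocd1, Fam83h and Rsad1. Their STAG2 folds ran from 3.66 to 5.48. Socs1, an inhibitor of cytokine signalling, had STAG2 folds of 4.88 and 4.10, and a deposited LIN54 summit in replicate 2 with a fold of 3.47. Fam83h was the one with no deposited LIN54 summit in either library. At the weaker threshold of the deposited lists, 957 genes (4.63%) were marked by LIN54 alone, 4011 (19.4%) by both antibodies in all 4 libraries and 576 (2.79%) by STAG2 alone.

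Of the 1752 genes of LIN54 alone, 1472 have a start in the promoter table, and in 1332 of these (90.5%) both LIN54 summits lay within 500 bp of it; among the common genes it was 297 of 323 (92.0%) and among the 127 with no STAG2 summit 93 of 108 (86.1%). With minus for upstream of the start, the median summit lay at -114 bp in the first group and -164 bp in the second. Like those at Kif22 and Btg2, the LIN54 summits at Cdc25c, Cdca2, Mcm4, Wee1, Tfdp2 and Esco2 were not matched to an annotated start. The same held for Egr1, Fosl1, Myc, Rpl32 and Fbxl19. Another gene's end lay within 1 kb for 45.4% of the genes of LIN54 alone, 46.0% of the common ones and 34.6% of the 127, against 25.6% of all genes, so many marked ends are shared and cannot be assigned to 1 gene.

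The promoter windows, which run from 250 bases before to 50 after the start, were searched for 13 short motifs on both strands. CCAAT was present in 656 of 1332 windows of LIN54 alone (49.2%), in 199 of 297 common windows (67.0%) and in 38.1% of all 20085 windows. The CHR was at or below the share of all windows in both sets, with 16.8% for LIN54 alone and 12.1% for common, against 16.97%. The E2F site was in 15.6% and 13.5% against 8.79%, and the ETS site CCGGAAG in 24.2% and 17.8% against 11.9%. The GC box GGGCGGG was in 53% and 58.9% against 34.5%, and the TATA box TATAAA in 5.48% and 9.09% against 12.7%. Both sets were also richer in CpG, with a median of 22 per window against 14, and the part of this in the motif shares was not tested.

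Within the DREAM target lists, the motifs followed the class of gene. Of 31 windows of LIN54-marked G2/M genes, 26 (83.9%) held a CHR and 25 (80.6%) a CCAAT box, and of the 20 marked by LIN54 alone 18 and 17 did. The windows of LIN54-marked G1/S genes held a CHR in 3 of 22 (13.6%) and an E2F site in 15 (68.2%), and the G2/M windows held an E2F site in 8 of 31 (25.8%). Counted per gene over all of its listed starts, a CHR was found in 28 of 33 G2/M genes marked by LIN54 and in 24 of 35 that were not, against 3215 of 16457 genes in all (19.5%). The CHR is thus a feature of the G2/M list with or without a LIN54 mark in these libraries.

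**Figure D4:**
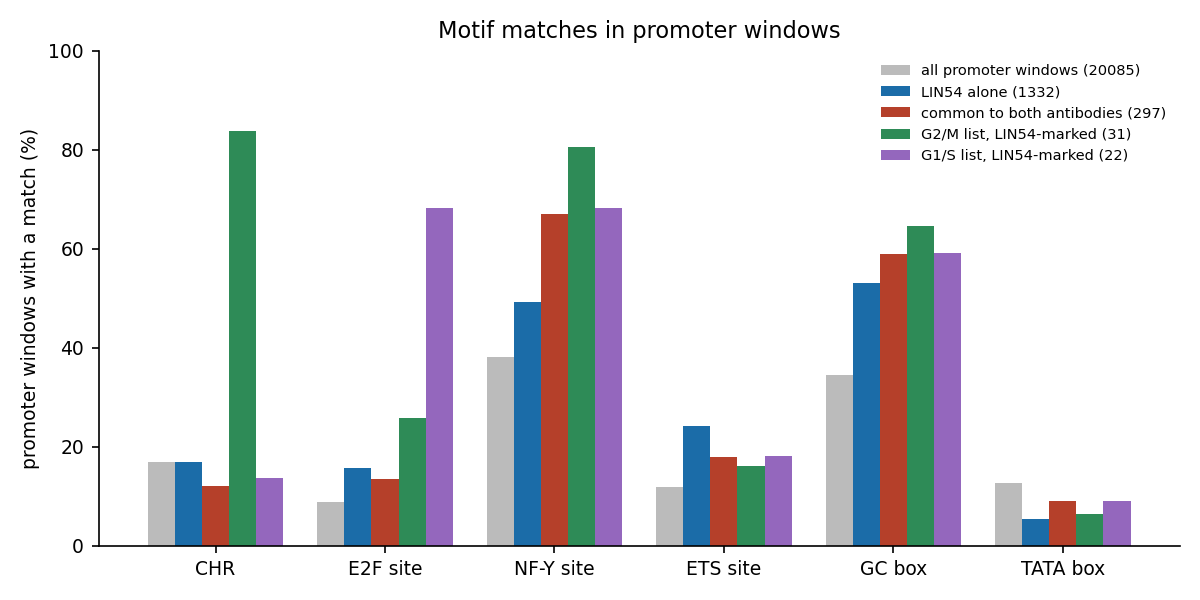
Percent of promoter windows (300 bases) that hold a match to each of 6 motifs, for all windows, the LIN54-alone and common gene starts, and the LIN54-marked G2/M and G1/S genes (number of windows in brackets). The CHR stands at 83.9% in the G2/M genes and at 12.1% to 16.97% in the other 4 sets; the NF-Y (CCAAT) site is at 67.0% in the common starts and 49.2% in those of LIN54 alone.

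Libraries that played no part in defining the grades also followed them. All 3 LIN54-WT libraries marked 4.95% of all genes at q 0.01, 13.4% of the 127 genes with no STAG2-KO summit, 17.5% of those with a weaker one, 34.4% of those marked in 1 STAG2-KO library and 66.8% of the common genes. Both STAG2-WT libraries, in which the antibody has its target, marked 13.1% of all genes and 21.3%, 40.9%, 63.4% and 89.7% of the 4 grades. With the p130 antibody, which was used in batches 2 and 3, a deposited summit was present in all 3 KO libraries at 9.39% of all genes and at 12.6%, 22.2%, 32.0% and 47.3% of the grades. In all 3 p130-WT libraries it was present at 15% of all genes and at 31.5%, 34.7%, 43.6% and 54.5%. The genes common to LIN54 and STAG2 in KO were thus the grade most often marked in all 4 of these groups of libraries, and the genes of LIN54 alone were marked less often in LIN54-WT libraries than the common ones. These shares were not tested, since genes are not replicates, and their LIN54 folds differ as given above.

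**Figure D5:**
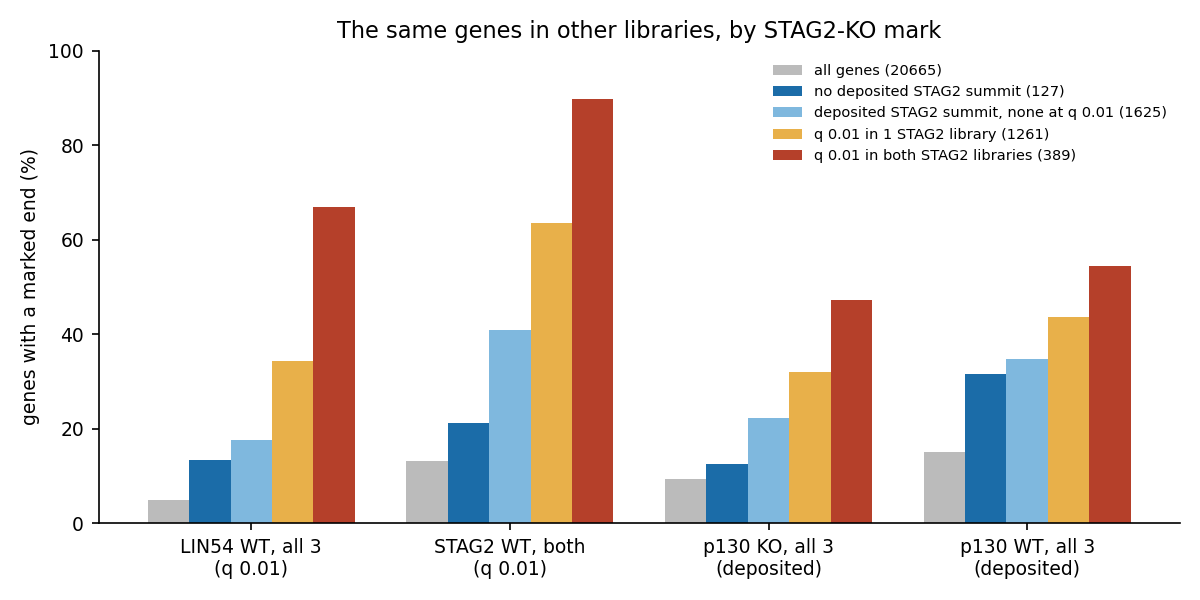
Percent of genes with an end marked in every library of 4 groups that did not define the sets, for all genes (grey) and for the 4 grades of STAG2-KO signal in LIN54-marked genes (number of genes in brackets). In each group of libraries the bars are taller with each grade, in STAG2-WT from 21.3% to 89.7%.

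Regions were graded in the same way, wherever they lay. Peaks at q 0.01 of the 4 libraries merged into 23040 regions. Both LIN54 libraries had a peak in 7741, of which 4362 (18.9% of all regions) overlapped no STAG2 peak at q 0.01, 2613 overlapped one in 1 STAG2 library and 766 (3.32%) in both. The STAG2 libraries shared 879 regions, and 40, which are 0.174% of all regions, overlapped no LIN54 peak at q 0.01. Of the LIN54 regions, 405 overlapped no deposited STAG2 peak at all, which is 1.76% of all regions. A gene end lay within 1 kb of 44.0% of the regions of LIN54 alone, 56.5% of the common ones and 23.0% of the 405. The share over all regions was 28.5%. The median widths of the same sets were 1078, 1789 and 796 bp, against 775 bp over all regions.

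Both STAG2-WT libraries marked 728 of 766 common regions (95.0%), 34.9% of the 4362 and 10.4% of the 405, against 26.8% of all regions. All 3 LIN54-WT libraries marked 46.0%, 7.66% and 4.44% of the same sets, against 5.40% of all 23040 regions. Of these sets, the 405 regions with no STAG2-KO peak were thus also those least often marked by LIN54 in the WT libraries. Their median LIN54-KO folds were lower too, at 4.67 and 4.45 against 8.98 and 8.64 in the common regions. The part of this in the shares was not tested.

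The best ranked of the 405 regions more than 5 kb from a gene end was chr10:91695660-91695897, between genes, with LIN54 folds of 21.8 and 10.2. It was only 238 bp wide, and the next, chr5:101250541-101251117 (10.1 and 17.9), was 577 bp wide. Widths of the 10 best ranked ran from 229 bp at chr7:125801404-125801632 to 1288 bp at chr5:118339830-118341117. The best common region of that kind, chr1:92180036-92181339 within a gene and 14.4 kb from the nearest gene end, that of Hdac4, was 1304 bp wide, with LIN54 folds of 24.1 and 14.5 and STAG2 folds of 6.42 and 6.79. Next were chr2:124308760-124310161, 218.8 kb from the nearest gene end, that of Sema6d (18.0 and 17.1 against 6.08 and 6.70), and chr19:38002391-38005434, 38.1 kb from that of Myof (16.95 and 15.5 against 4.94 and 8.50). These 3 common regions all lay within genes. The stretch of the histocompatibility complex from H2-K1 to H2-M3 (chr17:33996012-37274485) held 13 of the 405 regions (3.21%) and 69 of the 7741 LIN54 regions (0.891%), and near-identical genes in it make the placement of reads uncertain.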

How the data were processed

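The 15 peak lists are the authors' own. Build mm10 and the tools bcl2fastq, Bowtie2 and MACS2 are named in the submitters' processing notes; versions, settings and any control library are not given in the sources used here, and 2 pMNase control samples were not analysed here. Each list comes from 1 library and gives, per the file headers and layout, a score, a fold ratio at the summit over the background of that library, −log10 p and −log10 q for peaks of p up to 0.05. The deposited score was not used. These ratios and −log10 values are the authors' own within a library, and were used only for filtering, ranking and description.

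Peaks on chromosomes 1 to 19 were kept, and q 0.01 means a deposited −log10 q of at least 2. A gene was marked when either of its ends had a summit within 500 bp (RefSeq table, GRCm38.p6, 20665 protein-coding genes, no strand). Regions are peaks of the 4 libraries at q 0.01 merged where they share 1 bp or more. Fragments per summit and background coverage were solved from fold and p, and 99.99% to 100% of summits gave a whole count within 0.0002 on the log10 scale in these 4 libraries. Absence from a list means not detectable at the depth of that library. Promoter windows (20085, from 16457 genes) are from RefSeq, GRCm38.p6.

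The library was the unit. Log2 peak numbers and the percent at gene ends had two-sided exact permutation tests over 6 splits and the Jaccard difference a one-sided one. With 2 against 2 none can go below 0.33, and p-values measure only the spread between these libraries. Counts of genes and regions had no test. The members and gene lists were chosen with earlier results of these data known. Named genes are Stag2, Lin54 and Rbl2; the 12 best ranked by LIN54 fold with no STAG2 summit, the 12 best common and up to 5 of STAG2 alone; up to 4 per list in LIN54 alone and common; and the 10 best regions over 5 kb from a gene end in each kind. Others are said to be named after their values had been seen. All genes marked in 1 STAG2 library were so named too, as were Ube2c, Rps23, Spocd1, Fam83h and Rsad1. One gene that the rule names is not reported here. Alternatives were windows of 250 and 1000 bp, −log10 q of at least 5, the 5000 best peaks per library, a summit inside a region, each library left out and the replicate number as a block; touching peaks, annotated starts alone and only the end marked in both LIN54 libraries were added after the data had been seen. Software: Matplotlib 3.10.9, SciPy 1.17.1, pandas 2.3.3, NumPy 2.4.6 and Python 3.11.15. On simulated STAG2-KO and LIN54-KO lists over 20665 genes, each set of 200 planted genes was recovered in full.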

Additional observations from a re-analysis of the deposited data

Results flagged for a closer look

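The number of peaks at q 0.01 differed between antibodies in opposite directions in the 2 genotypes, which singled it out. In KO, the LIN54 libraries held 12915 and 15641 peaks and the STAG2 libraries 1229 and 6752, a log2 ratio of 2.30. In WT, the 3 LIN54 libraries held 2134 to 6512 and the 2 STAG2 libraries 13193 and 25604, a log2 ratio of -2.19. Every library of one antibody lay above every library of the other within each genotype. The difference between genotypes was not tested, and no cause was tested.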

How the results depend on the processing

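The lists limit what can be said: a summit needs 9 to 11 fragments to reach q 0.01, no gene or region count has a replicate test, and each count depends on its window and threshold. With a window of 250 bp, common genes numbered 214, STAG2 alone 18, LIN54 with no STAG2 summit 281, and in the deposited lists 1765 were common and 377 STAG2 alone. With 1000 bp, STAG2 alone numbered 5, LIN54 with no STAG2 summit 47 and common genes of the deposited lists 6831. At −log10 q of at least 5, common genes numbered 101, STAG2 alone 0 and LIN54 with no STAG2 summit 40, and regions of LIN54 alone 2519, with no STAG2 peak 80, common 180 and STAG2 alone 7. With the 5000 best peaks of each library, LIN54 alone numbered 714 genes and 1250 regions and STAG2 alone 63 genes and 313 regions, while the difference in the percent of peaks at gene ends turned from -4.18 to 17.9 points. Requiring that no STAG2 peak touch left 44 genes, and with annotated starts alone STAG2 alone numbered 5; both settings were added after seeing the data. The other 25 alternative values, leaving out no library, kept the direction or stayed within 1.5 times.

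Leaving out each library in turn asks for fewer libraries and so raised each count of genes and regions. LIN54 alone ranged from 1822 to 2943 genes and 4474 to 11654 regions, with no STAG2 summit or peak from 242 to 800 genes and 750 to 3503 regions, and in the deposited lists from 1737 to 2849 genes. Common ones ranged from 396 to 1580 genes and 793 to 3270 regions, and from 4461 to 5903 genes in the deposited lists. STAG2 alone ranged from 15 to 271 genes, 70 to 2398 regions and 1026 to 1799 genes in the deposited lists. The largest values of the common and STAG2-alone genes and regions at q 0.01 came without STAG2 replicate 1. The log2 ratio of peak numbers ranged from 1.07 to 3.53, the percent at gene ends from -8.23 to -0.128 points and the Jaccard difference from -0.0436 to 0.288, turning negative without either LIN54 library.

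With the replicate number as a block, the log2 ratio of peak numbers was 2.30 (exact permutation p = 0.5) and the difference in percent at gene ends -4.18 points (exact permutation p = 1), where 0.5 is the smallest p possible. The replicate differences of the 2 antibodies correlated over 4011 gene ends with a Pearson r of -0.03, so the numbers were not taken to pair libraries.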
